A study of Arabidopsis thaliana with 8 samples.

Results

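The small auxin-up RNA (SAUR) genes make up one of the largest families of early auxin-responsive genes in *Arabidopsis thaliana*, and many of them stand in tandem arrays. The members described here were taken from a list of 58 SAUR loci, which was matched by locus identifier to the 37573 genes of the count table. Of these 58 genes, 35 lie in 8 tandem arrays and 23 are single loci, and 48 had enough reads to be tested between treatments. Arrays and single loci were set among the listed genes only, so a single locus can have a SAUR neighbour off the list. The reads came from polyA RNA of hypocotyls, the stem below the cotyledons, which thickens by radial growth in older plants. All plants carried *SMXL7pro:SMXL7d53-GR* in a background given as WT: the SMXL7 promoter drives a form of the strigolactone signalling repressor SMXL7 that resists degradation, fused to the hormone-binding part of the glucocorticoid receptor. Such a fusion enters the nucleus once dexamethasone (DEX) binds it. Plants were grown on soil for 3 weeks with 10 h of light a day and for 1 week with 16 h, then received 15 µM DEX in the water, or as mock the same volume of its solvent DMSO, and were harvested 5 h later at an age of 4 weeks. There were 4 libraries per treatment. The labels do not say whether these came from separate plants or pools, so p-values measure the spread between these libraries. Neither treatment was given to plants without the transgene, so that an action of DEX itself and an action of the fusion protein cannot be told apart.

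SAUR proteins are short, mostly encoded by genes without introns, and their transcripts appear within minutes of auxin treatment in seedlings. The best known of them, those of the SAUR19 group, bind and inhibit PP2C.D phosphatases, which would otherwise remove an activating phosphate from proton pumps of the plasma membrane. Pumps kept active in this way acidify the cell wall, and the wall then yields to turgor and the cell expands. Other members are known mainly for responses to light, ethylene or senescence rather than to auxin.

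Libraries held 49220724 to 85953231 counts in mock and 47976811 to 63996960 in DEX samples, and the family took 0.0445 to 0.0466% of the counts in mock and 0.0380 to 0.0412% in DEX libraries. All 10 hypocotyl markers, among them *WOX4* and *PXY* of the cambium, *IRX3* of xylem and *APL* of phloem, were tested, and their summed normalised counts were 40318 to 43097 in mock and 45779 to 49621 in DEX libraries. The 1 called gene among them was the procambium gene *ATHB8*, which was induced from 4968 ± 341 to 8514 ± 599.6 normalised counts (SD, n = 4), or by 0.78 ± 0.06 on the log2 scale (adjusted p = 1.1e-06), while *WOX4* had -0.21 ± 0.05 (adjusted p = 0.00731, edgeR). Markers of roots summed to 39.4 to 69.7 in mock and 30.8 to 60.8 in DEX libraries, and 1 of the 7 root markers was abundant enough to be tested. Of 9 markers for stomatal lineage and shoot meristem, 4 were suppressed, namely *TMM*, *SPCH*, *FAMA* and *EPF2*, while the meristem gene *STM* was higher in DEX. Without *STM*, this list summed to 1260 to 1857 in mock and 566 to 823 in DEX libraries. No marker in the 3 lists was at 0 in all libraries. Whether the drop in stomatal transcripts has a part in any SAUR change below was not tested. In such whole-organ samples, fewer cells of a type and less RNA per cell cannot be told apart.

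Tandem copies limit what short reads can tell, because only reads with 1 place in the genome were counted, reads lying on 2 genes were dropped, and strand was ignored. To size this limit, exons were divided into all windows of 75 bases (the read length is not given in the sources used here), and each was searched in the TAIR10.1 reference. In 50 of the 58 members every window occurred once in the genome. The lowest shares of such windows were those of *SAUR67* (AT1G29510) with 72.4%, *SAUR63* (AT1G29440) with 77.3% and *SAUR62* with 85.4%. RefSeq lists AT1G29510 as SAUR68 with SAUR67 as a synonym and AT1G29490 with SAUR68 as a synonym. Here the names *SAUR67* and *SAUR68* are used for AT1G29510 and AT1G29490. The coding sequences of *SAUR63* and *SAUR67* were 89.4% identical, and those of *SAUR19* and *SAUR21* were 93.8% identical. The longest stretches of coding sequence that these 2 pairs share are shown because a read lying within them could not be counted for either gene. Repeated stretches of whole exons can be longer. Of 150-base exon windows, 90.1% occurred once for *SAUR63*, 91.8% for *SAUR67* and 100% for *SAUR19* and *SAUR21*. Capitals mark the shared run, which is all that is printed, from the coding strand, with 91 bases on chromosome 1 and 86 bases on chromosome 5, and each run occurs in 2 places in the genome.
SAUR63/SAUR67: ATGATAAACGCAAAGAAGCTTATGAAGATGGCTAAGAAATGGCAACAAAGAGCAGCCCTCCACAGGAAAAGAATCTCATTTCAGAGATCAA
SAUR19/SAUR21: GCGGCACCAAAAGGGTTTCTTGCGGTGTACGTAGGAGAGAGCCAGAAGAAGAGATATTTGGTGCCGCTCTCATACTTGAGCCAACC

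Despite the likeness of their coding regions, *SAUR19* kept 97.5% and *SAUR21* kept 98.4% of windows that occur once. Within the SAUR19-24 array, coding identity ran from 87.7 to 95.2% over 15 pairs with a median of 91.2%. It was 77.7 to 86.3% in the SAUR26-29 array and 45.4 to 89.4% in the SAUR61-68 array. No pair in the other 5 arrays exceeded 68.6%. Overlap with a neighbouring gene was the other limit. The exons of 8 members overlap another gene, most of all those of *SAUR13*, of which 89.3% of bases lie under AT4G38820 and no window is free of it, followed by *SAUR61* with 47.3% and *SAUR31* with 45.9% of exon bases shared. The 6 members called changed below have no such overlap, and all of their windows occur once.

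**Figure D1:**
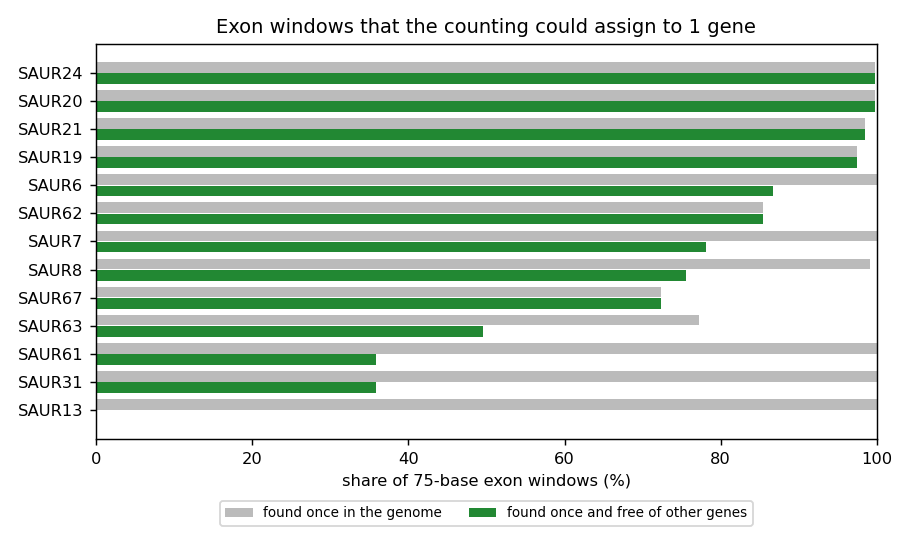
Share of 75-base exon windows (%) found once in the genome (grey) and found once without touching another gene (green), for the 13 members where the latter is below 100%. *SAUR13* has none of the latter kind, while *SAUR19*, *SAUR20*, *SAUR21* and *SAUR24* keep 97.5% or more.

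Levels per length, as RPKM (counts scaled by exon length and TMM-adjusted library size), differed widely among the members. *SAUR32* was the highest with 118 RPKM in mock and 81.3 in DEX samples, and it alone held 23.6% of the family's reads in mock. *SAUR32*, known from the apical hook of seedlings, was followed by *SAUR72* with 48.8 and 64.0 RPKM, *SAUR50* with 46.1 and 38.1, and *SAUR53* with 34.1 and 26.3. These 4 genes made up 51.7% of the family's reads in mock. A mean level over 10 RPKM was found in 12 members, and 23 members were under 1 RPKM. The SAUR19-24 genes, for which the growth-promoting role is best known, belonged to the low part of the range, with mock levels from 0.611 RPKM for *SAUR19* to 2.56 RPKM for *SAUR24*.

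**Figure D2:**
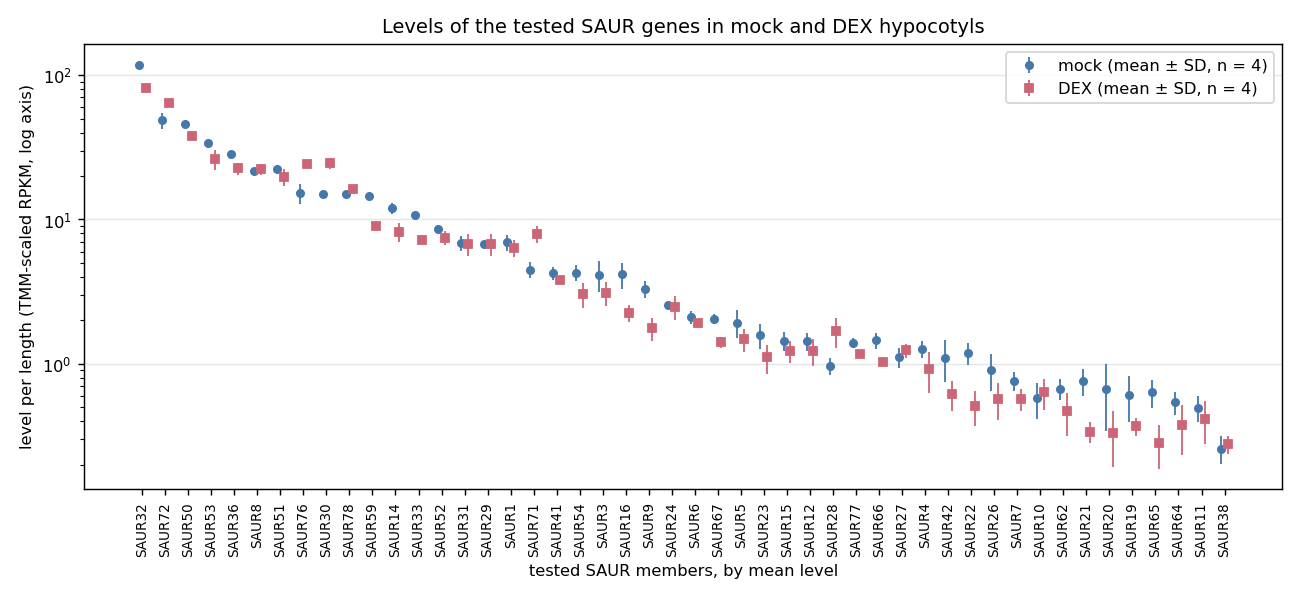
Level per length (RPKM scaled by TMM, log axis) of the 48 tested members in mock (circles) and DEX (squares), ordered by their mean level, points and bars being mean ± SD (n = 4). *SAUR32* leads with 118 RPKM in mock, and most SAUR19-24 and SAUR61-68 genes lie near or below 1 to 2 RPKM.

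The 58 listed members leaned towards lower transcript levels after DEX, with a minority of members going the other way. In edgeR, a gene was called induced or suppressed at an adjusted p under 0.01, a change over 1.5-fold and a mean normalised count over 50. By this call 3 members were induced, *SAUR71*, *SAUR76* and *SAUR30*, against 4.64% of all 21289 genes tested, and 3 were suppressed, *SAUR59*, *SAUR9* and *SAUR16*, against 1.81% of all genes. Of the 48 tested members, 33 passed the threshold on the mean. On adjusted p alone, 12 members were lower and 5 higher in DEX, which is 25% and 10.4% of the tested members, beside 8.69% and 10.9% of all tested genes. The log2 fold change was below 0 in 37 members (77.1%), against 51.5% of all tested genes, and its median was -0.35 over the members and -0.01 over all tested genes. The 4 mock and 4 DEX values did not overlap in 18 members that were lower and 5 that were higher in DEX, beside 15.1% and 16.2% of all tested genes. The count of suppressed members depended on the scaling: 6 members were suppressed with scaling by total counts and 7 with upper-quartile factors, while 3 stayed the count of induced members in both. Leaving out DEX replicate 1 gave 5 suppressed and 3 induced members. All 6 calls rest on a test against no change: tested against the 1.5-fold threshold itself with edgeR's glmTreat, 0 members passed, the lowest adjusted p of a member was 0.0600, and 2 were higher and 6 lower at an unadjusted p under 0.05. Summed over all 58 members, CPM (counts scaled to the TMM-adjusted library size) were 448 ± 7.74 in mock and 404 ± 17.5 in DEX libraries (SD, n = 4), a change of -9.91%, and the 4 mock sums (440.5 to 457) lay above the 4 DEX sums (386 to 419). Scaled to total counts without TMM, the sums were 455 ± 8.73 and 397 ± 17.6 CPM, a change of -12.7%. Such sums are weighted to the abundant members. *SAUR32* alone held 23.6% of the family's reads in mock and fell from 6404.5 to 4414.6 mean normalised counts, so the sums do not describe a typical member.

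**Figure D3:**
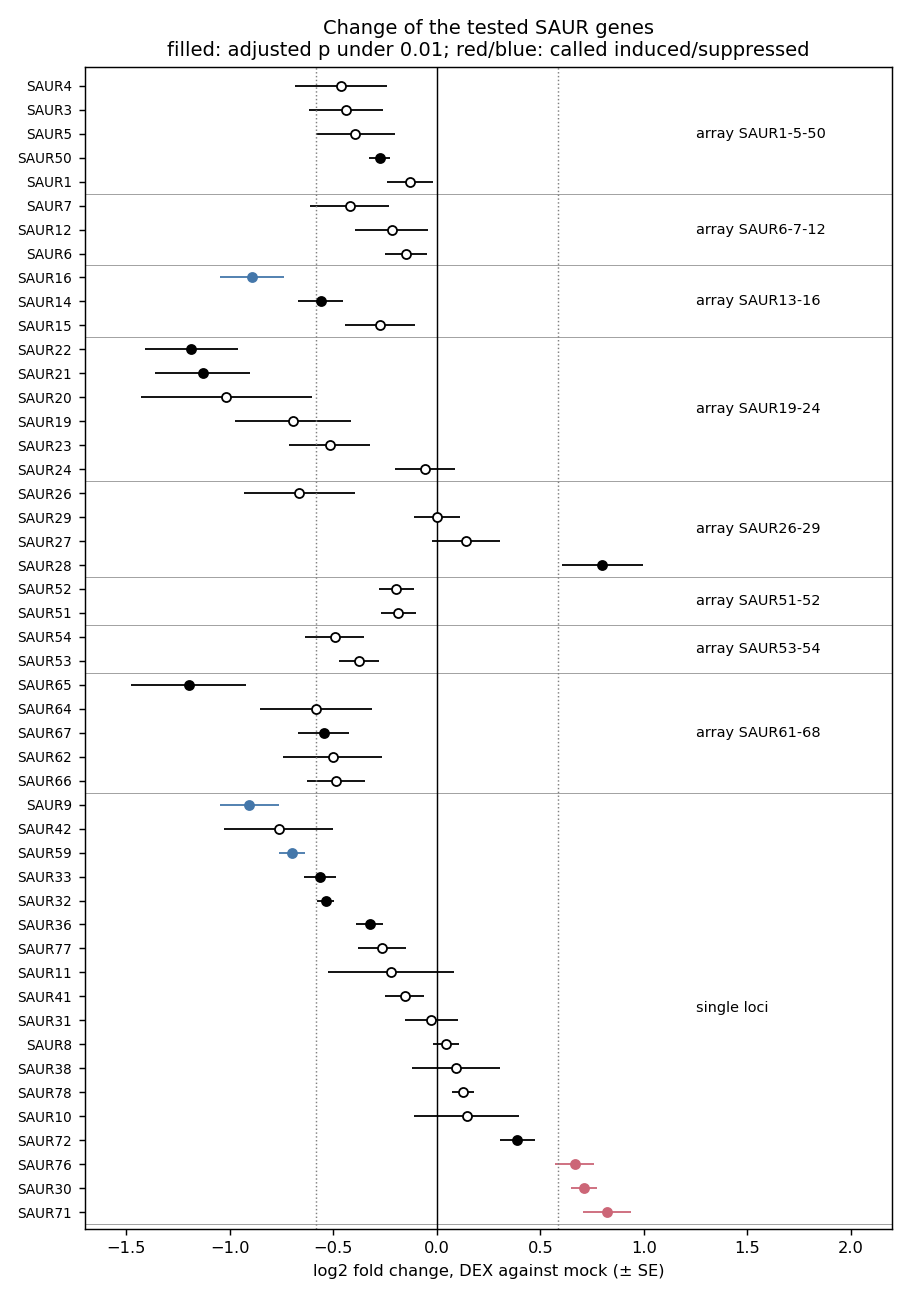
Log2 fold change of DEX against mock (± SE) for the 48 tested members, grouped by tandem array and single loci. Filled points have an adjusted p under 0.01, red and blue points are the 3 induced and 3 suppressed members, dotted lines mark 1.5-fold, and 37 points lie below 0.

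All 3 induced members are single loci. *SAUR71* (AT1G56150, chr1:21017311-21018122, 1 exon), which like *SAUR72* is known from vascular tissue of roots and hypocotyls, belongs to a subfamily with *SAUR72* and *SAUR41*. Its normalised counts were 186, 223, 253 and 224 in mock and 312, 417, 414 and 421 in DEX libraries, so that the lowest DEX library stood above the highest mock one. This was a rise of 0.82 ± 0.12 on the log2 scale (adjusted p = 0.000159, edgeR). *SAUR30* (AT5G53590, chr5:21771811-21772794, 1 exon) had 873, 909, 892 and 899 normalised counts in mock against 1269, 1474, 1578 and 1518 in DEX libraries. The mock libraries lay close to one another, all DEX libraries were higher, and the rise was 0.71 ± 0.06 (adjusted p = 3.15e-06, edgeR). *SAUR76* (AT5G20820, chr5:7046747-7047446, 1 exon) is, with *SAUR77* and *SAUR78*, known for proteins that interact with ethylene receptors. It had 648, 548, 782 and 609 normalised counts in mock and 1022, 969, 1041 and 1107 in DEX libraries. The groups did not overlap, and the rise was 0.67 ± 0.09 (adjusted p = 0.000253, edgeR). Its relatives did not pass the test: the log2 fold change was 0.13 ± 0.05 for *SAUR78* (adjusted p = 0.0787) and -0.27 ± 0.11 for *SAUR77* (adjusted p = 0.0979, edgeR). *SAUR70* (AT5G20810), a SAUR gene off the list, precedes *SAUR76* in locus number. It had 0.29 ± 0.11 (adjusted p = 0.0620, edgeR), with all DEX libraries above all mock libraries.

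A further single locus, *SAUR72* (AT3G12830), the second most abundant member, rose by less than the fold threshold. Like the other members named only for their adjusted p, it was picked after its values were seen. Its normalised counts ran from 2433 to 3254 in mock and from 3461 to 3985 in DEX libraries, with no overlap, and the change was 0.39 ± 0.08 on the log2 scale (adjusted p = 0.00553, edgeR). The subfamily did not move as one, since *SAUR41*, known to promote hypocotyl expansion, had a log2 fold change of -0.16 ± 0.09 (adjusted p = 0.23, edgeR).

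**Figure D4:**
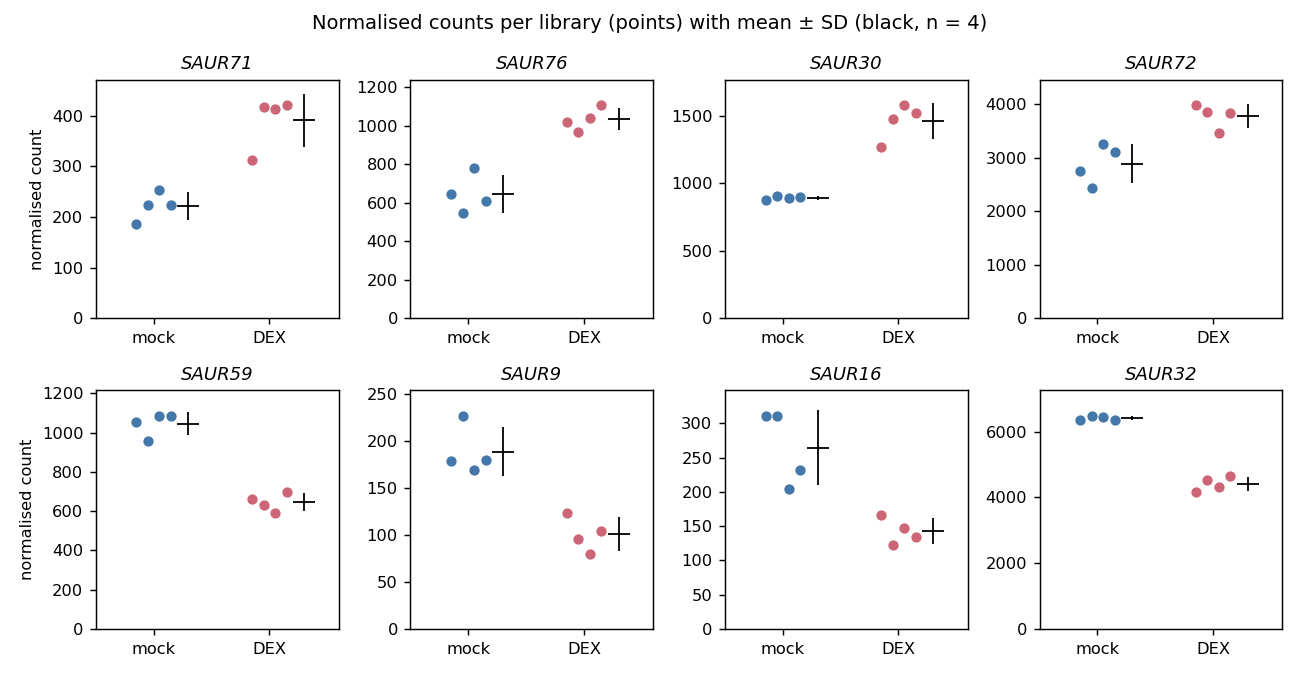
Normalised counts of 8 members per library (points, 4 mock and 4 DEX libraries) with mean ± SD in black (n = 4), vertical axes starting at 0. In each of the 8 genes all DEX libraries lie on one side of all mock libraries, above them for *SAUR71*, *SAUR76*, *SAUR30* and *SAUR72* and below them for *SAUR59*, *SAUR9*, *SAUR16* and *SAUR32*.

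Among the suppressed members, *SAUR59* (AT3G60690, chr3:22434864-22436053, 1 exon) was the most abundant. Its normalised counts were 1054, 959, 1082 and 1085 in mock and 660.1, 633, 591 and 698 in DEX libraries. Every DEX library was below every mock library, and the fall was -0.70 ± 0.06 on the log2 scale (adjusted p = 3.68e-06, edgeR). Its 250 bases before the annotated start are shown because it is the member whose window holds the G-box CACGTG, a motif bound by bHLH factors such as the PIFs and by bZIP factors such as HY5. The window (chr3:22434614-22434863, plus strand, TAIR10.1) has 2 copies, in capitals, which begin 137 and 124 bases before the start.
SAUR59: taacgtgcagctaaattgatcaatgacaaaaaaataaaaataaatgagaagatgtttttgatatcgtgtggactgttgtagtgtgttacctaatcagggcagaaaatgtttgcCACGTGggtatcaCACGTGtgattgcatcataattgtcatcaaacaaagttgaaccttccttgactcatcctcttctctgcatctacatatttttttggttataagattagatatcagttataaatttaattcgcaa

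*SAUR9* (AT4G36110, chr4:17089934-17090873, 1 exon) encodes a protein that, like SAUR19, inhibits PP2C.D phosphatases. Its normalised counts were 179, 227, 169.6 and 179.6 in mock and 123, 95.4, 79.96 and 104 in DEX libraries. With no overlap between the groups, the fall was -0.90 ± 0.14 on the log2 scale (adjusted p = 0.000364, edgeR). *SAUR16* (AT4G38860, chr4:18130237-18131284, 1 exon), known as a light-induced gene of opening cotyledons, was the only suppressed member of a tandem array. It had 311, 311, 204 and 233 normalised counts in mock and 166, 122, 148 and 135 in DEX libraries. The spread among its mock libraries was wide, yet the lowest of them stayed above the highest DEX library, and the fall was -0.89 ± 0.15 (adjusted p = 0.000842, edgeR).

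The most abundant member, *SAUR32* (AT2G46690, chr2:19180705-19181600), fell with high precision without reaching the fold threshold. Its normalised counts were 6364, 6474, 6428 and 6353 in mock and 4165, 4523, 4328 and 4643 in DEX libraries. This was a fall of -0.54 ± 0.04 on the log2 scale (adjusted p = 1.05e-06, edgeR). *SAUR33* fell by nearly the same amount, from 313 ± 5.96 to 211 ± 11.6 normalised counts (SD, n = 4), with a log2 fold change of -0.56 ± 0.08 (adjusted p = 0.000106, edgeR). *SAUR36*, known as a gene of leaf senescence, fell from 2013 ± 104 to 1612 ± 154 normalised counts (SD, n = 4), or by -0.32 ± 0.06 on the log2 scale (adjusted p = 0.00215, edgeR). In all 3 genes the treatments did not overlap. Over the 18 tested single loci, 4 were higher (22.2%) and 5 lower (27.8%) at adjusted p under 0.01, beside 10.9% and 8.69% of all tested genes. The median log2 fold change of these loci was -0.09.

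Most members of the arrays had lower values in DEX than in mock. Of 30 tested array members, 27 had a log2 fold change below 0, and the median was -0.45. At adjusted p under 0.01 there were 7 lower (23.3%) and 1 higher (3.33%), beside 8.69% and 10.9% of all tested genes. In 7 of the 8 arrays all tested members were below 0. Summed CPM changed by -35.4% for SAUR13-16, -33.6% for SAUR61-68, -31.4% for SAUR19-24, -23.3% for SAUR53-54 and -17.3% for SAUR1-5-50. The change was -12.6% for SAUR6-7-12, -12.0% for SAUR51-52 and 4.37% for SAUR26-29. These values are given without a test.

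The SAUR19-24 array spans 21.5 kb on chromosome 5 (chr5:5962773-5984308). All 6 genes were tested, and their median log2 fold change was -0.85. *SAUR22* (AT5G18050) had 40.6, 63.8, 55.6 and 55.4 normalised counts in mock and 25.2, 28.9, 23.6 and 14.1 in DEX libraries, a fall of -1.19 ± 0.22 on the log2 scale (adjusted p = 0.00146, edgeR). *SAUR21* (AT5G18030) had 41.3, 48.4, 28.9 and 36.2 in mock and 16.4, 21.2, 14.6 and 16.7 in DEX libraries, a fall of -1.13 ± 0.23 (adjusted p = 0.00229, edgeR). Both fell by more than 2-fold with no overlap between treatments, and both missed a call because their mean count was below 50. *SAUR24* (AT5G18080), the member with the highest level in the array, had 99.8, 93.3, 102 and 94.0 normalised counts in mock and 95.7, 74.2, 118 and 88.5 in DEX libraries. Its groups overlapped, and the log2 fold change was -0.06 ± 0.14 (adjusted p = 0.798, edgeR). The other 3 genes lay between these, with -1.02 ± 0.41 for *SAUR20*, -0.69 ± 0.28 for *SAUR19* and -0.52 ± 0.19 for *SAUR23*, none of which passed the test.

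The windows before the starts of *SAUR22* and *SAUR24* are shown because these 2 genes, of 89.7% coding identity, had the most different changes in the array. In *SAUR22* (chr5:5975088-5975337, minus strand, TAIR10.1), capitals mark GAGACA, the reverse complement of the auxin response element TGTCTC, 115 bases before the start. The window of *SAUR24* (chr5:5983433-5983682, plus strand) has none of the 3 motifs searched, and that of *SAUR21* has none either.
SAUR22: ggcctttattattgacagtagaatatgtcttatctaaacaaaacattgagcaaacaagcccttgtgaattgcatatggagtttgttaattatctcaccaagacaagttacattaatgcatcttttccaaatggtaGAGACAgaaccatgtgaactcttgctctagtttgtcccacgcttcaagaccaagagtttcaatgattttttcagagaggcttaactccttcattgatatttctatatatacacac
SAUR24: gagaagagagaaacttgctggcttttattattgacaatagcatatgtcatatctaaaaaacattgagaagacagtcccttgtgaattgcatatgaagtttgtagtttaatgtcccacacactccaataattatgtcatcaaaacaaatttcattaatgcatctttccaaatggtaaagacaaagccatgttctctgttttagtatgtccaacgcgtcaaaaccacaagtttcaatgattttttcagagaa

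The SAUR61-68 array on chromosome 1 (chr1:10301377-10323239) had 5 tested members out of 8, all below 0, with a median log2 fold change of -0.55. *SAUR67* (AT1G29510), the highest of them per length, had 106, 112, 96.4 and 94.0 normalised counts in mock and 78.1, 69.3, 66.4 and 65.4 in DEX libraries. No DEX library reached the lowest mock library, and the fall was -0.55 ± 0.12 on the log2 scale (adjusted p = 0.00461, edgeR), with the restriction that 72.4% of its windows occur once in the genome. *SAUR65* (AT1G29460) had 27.1, 41.3, 40.8 and 28.9 normalised counts in mock and 17.6, 7.71, 19.1 and 16.7 in DEX libraries. This was the lowest log2 fold change of all members, -1.20 ± 0.28 (adjusted p = 0.00568, edgeR), at counts too low for a call. *SAUR62*, *SAUR64* and *SAUR66* ranged from -0.58 to -0.49 and did not pass the test. *SAUR63*, known to promote elongation of floral organs and hypocotyls, had no count among the 484048752 counts of the 8 libraries, which allows a level of up to 0.00620 CPM by total counts. Only 49.6% of its windows could be assigned to it.

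**Figure D5:**
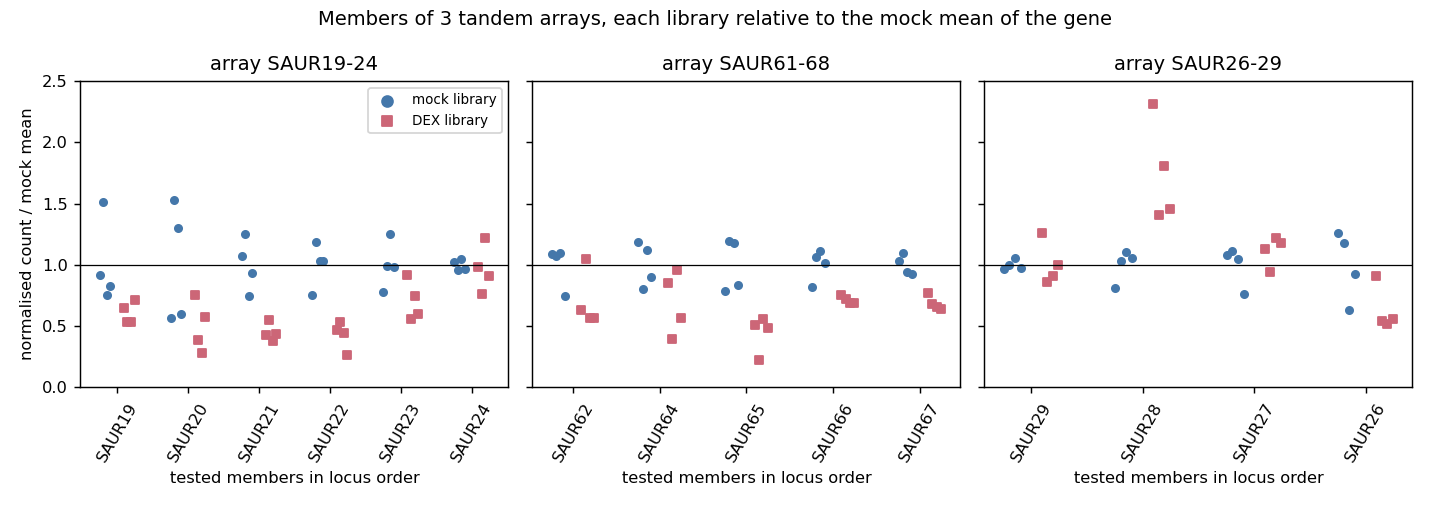
Normalised count of each library divided by the mock mean of the gene, for the tested members of 3 tandem arrays in locus order (circles, 4 mock libraries, squares, 4 DEX libraries). In SAUR19-24 and SAUR61-68 most DEX libraries lie below 1, with *SAUR24* near 1, and in SAUR26-29 all DEX libraries of *SAUR28* lie above 1.

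The SAUR26-29 array on chromosome 3 was the one array with members on both sides of 0. *SAUR28* (AT3G03830) had 27.8, 35.4, 38 and 36.2 normalised counts in mock and 79.4, 48.2, 61.9 and 50.03 in DEX libraries. It rose by 0.80 ± 0.20 on the log2 scale (adjusted p = 0.00796, edgeR) with no overlap between treatments, and its mean count of 47.1 was just below the threshold for a call. *SAUR29* (AT3G03820), the most abundant of this array per length, had 299, 309, 328 and 303 in mock and 391, 265, 282 and 309 in DEX libraries, in full overlap. Its log2 fold change was 0.00 ± 0.11, that of *SAUR27* was 0.14 ± 0.16 and that of *SAUR26* was -0.66 ± 0.27, and none of these 3 passed the test.

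In the SAUR13-16 array on chromosome 4, *SAUR14* (AT4G38840), also known as light-induced, fell beside *SAUR16*. It had 448, 455, 419 and 370.01 normalised counts in mock and 305, 232, 284 and 334 in DEX libraries. The treatments did not overlap, and the log2 fold change of -0.56 ± 0.11 (adjusted p = 0.00149, edgeR) was just short of the fold threshold. It became a call without mock replicate 4 (-0.61), DEX replicate 1 (-0.59) or DEX replicate 4 (-0.64). *SAUR15*, known as SAUR-AC1 and one of the first auxin-induced genes studied in this species, had 67.9 ± 10.3 in mock and 57.1 ± 9.91 normalised counts in DEX samples (SD, n = 4) and did not pass the test (log2 fold change -0.27 ± 0.17).

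In the SAUR1-5-50 array, *SAUR50* (AT4G34760), which acts with *SAUR16* in light-induced cotyledon opening, held most of the reads of the listed members. Its normalised counts were 2623, 2396, 2544 and 2415 in mock and 2234, 2103, 1889 and 2023 in DEX libraries. The DEX libraries were all lower, by -0.28 ± 0.05 on the log2 scale (adjusted p = 0.00155, edgeR). *SAUR1*, *SAUR3*, *SAUR4* and *SAUR5* ranged from -0.46 to -0.13 and did not pass the test. *SAUR49* (AT4G34750), off the list, precedes *SAUR50* in locus number and had a higher mean normalised count (2472 against 2278). *SAUR49* fell by -0.37 ± 0.05 on the log2 scale with no overlap between treatments (adjusted p = 6.58e-05, edgeR). In the pair SAUR53-54, both genes had no overlap between treatments at an adjusted p just over the threshold. *SAUR53* (AT1G19840) had 2331, 2301, 2181 and 2144 normalised counts in mock and 1946, 1431, 1565 and 1979.5 in DEX libraries, a log2 fold change of -0.38 ± 0.10 (adjusted p = 0.0154, edgeR). *SAUR54* had -0.49 ± 0.14 (adjusted p = 0.0185, edgeR). The remaining arrays overlapped between treatments in every tested member. *SAUR51* (AT1G75580) had 1277, 1156, 1315 and 1294 in mock and 1325, 1005, 994 and 1126 normalised counts in DEX libraries (-0.18 ± 0.08), close to its partner *SAUR52* (-0.19 ± 0.08). *SAUR6* (AT2G21210) had 195, 158, 191 and 169.9 in mock and 179, 159.9, 162 and 149 in DEX libraries (-0.15 ± 0.10), and its neighbours *SAUR7* and *SAUR12* had -0.42 ± 0.19 and -0.22 ± 0.18. None of these 5 genes passed the test.

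The 10 members that were not tested had at most 13 counts in any library. Besides *SAUR63* they were *SAUR61* and *SAUR68* of the same array, *SAUR2*, *SAUR13*, *SAUR17*, *SAUR18*, *SAUR25*, *SAUR37* and *SAUR55*. *SAUR25* had 1 count over all mock libraries and 11 over all DEX libraries. *SAUR17*, known from the apical hook of dark-grown seedlings, had 5 counts over the mock and 5 over the DEX libraries.

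The motifs were searched on both strands before the starts of all 58 members and of 27443 protein-coding genes of the annotation. Within 250 bases, the auxin response element TGTCTC was in 7 members (12.1%) against 10.9% of all promoters, its variant TGTCGG in 2 members (3.45%) against 4.16%, and the G-box CACGTG in 1 member (1.72%) against 6.49%. Within 1000 bases these shares were 50% against 39.6%, 20.7% against 14.6% and 8.62% against 14.8%. Of the 12 members that were lower at adjusted p under 0.01, *SAUR22* and *SAUR67* had TGTCTC within 250 bases, and of the 5 that were higher none had it. In *SAUR28* the variant TGTCGG lies 176 bases before the start. The other 5 members with TGTCTC within 250 bases did not pass the test. The window of *SAUR67* (chr1:10322173-10322422, plus strand, TAIR10.1) has the motif in capitals 93 bases before the start. It is shown as the other member with TGTCTC that was lower at adjusted p under 0.01. The window of the induced *SAUR76* (chr5:7047447-7047696, minus strand), shown for comparison, has none of the 3 motifs.
SAUR67: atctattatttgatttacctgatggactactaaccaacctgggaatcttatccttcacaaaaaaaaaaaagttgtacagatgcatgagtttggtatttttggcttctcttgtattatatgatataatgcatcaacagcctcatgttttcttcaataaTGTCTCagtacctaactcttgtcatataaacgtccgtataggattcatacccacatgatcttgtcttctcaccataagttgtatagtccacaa
SAUR76: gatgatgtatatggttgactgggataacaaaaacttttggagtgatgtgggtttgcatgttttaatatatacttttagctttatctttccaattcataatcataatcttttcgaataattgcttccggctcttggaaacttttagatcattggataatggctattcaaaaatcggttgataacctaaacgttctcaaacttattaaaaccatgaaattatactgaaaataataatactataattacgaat

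A list of auxin-inducible genes that the study drew from earlier work holds 17 of the 58 members. Of these, 15 were tested, 1 was induced (*SAUR76*), 2 were suppressed (*SAUR9* and *SAUR16*), 11 had a log2 fold change below 0, and the median was -0.49. Of the other genes on the same list, 165 were tested, 69 were induced and 5 suppressed, 33 were below 0, and the median log2 fold change was 0.46. The 33 tested members outside the list had a median of -0.32, with 26 below 0. *SAUR9* and *SAUR16* also stand on the corresponding list for brassinolide, *SAUR9* on that for methyl jasmonate, and *SAUR76* on that for the ethylene precursor ACC.

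Of the genes that link SAUR proteins to cell expansion, the PP2C.D phosphatases had the most calls. All 9 were tested, 3 were induced (33.3%), and 5 were higher at adjusted p under 0.01 (55.6%). Over all tested genes these shares were 4.64% and 10.9%. *PP2C.D8* had 2857, 3135, 3424 and 3884 normalised counts in mock and 11568, 12667, 13968 and 13556 in DEX libraries, a rise of 1.96 ± 0.09 on the log2 scale (adjusted p = 3.15e-07, edgeR). *PP2C.D7* had 187, 187, 165 and 190.4 in mock and 391, 415, 420.1 and 613 in DEX libraries, a rise of 1.34 ± 0.14 (adjusted p = 1.97e-05, edgeR). *PP2C.D1*, whose protein is a known target of SAUR19 and SAUR9, had 173, 152, 166 and 134 in mock and 358, 262, 298 and 345 in DEX libraries, a rise of 0.998 ± 0.12 (adjusted p = 3.56e-05, edgeR). All DEX libraries were above all mock libraries in these 3 genes. *PP2C.D5* and *PP2C.D6*, which were abundant in mock together with *PP2C.D2*, had -0.04 ± 0.04 and -0.07 ± 0.04 and did not pass the test. *PP2C.D2* rose by less than the fold threshold, by 0.23 ± 0.04 (adjusted p = 0.00113, edgeR), with no overlap between treatments.

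Of 10 tested proton pumps, 1 was induced (10%, beside 4.64% of all tested genes). *AHA9*, known from anthers, had 30.7, 35.4, 31.7 and 21.7 normalised counts in mock and 61.7, 61.6, 92.3 and 68.0 in DEX libraries, with no overlap and a log2 fold change of 1.23 ± 0.19 (adjusted p = 0.000384, edgeR). Its mean count of 50.4 was just over the threshold, so that it was no longer called without mock replicate 3 or without DEX replicate 2, 3 or 4, where the mean was below 50. Of the more abundant pumps, *AHA1* fell by -0.17 ± 0.04 on the log2 scale (adjusted p = 0.00545), *AHA11* fell by -0.40 ± 0.04 (adjusted p = 1.03e-05), and *AHA2* had 0.08 ± 0.04 (adjusted p = 0.198, edgeR). Of 10 transcription factors known to act on SAUR genes none was called, while *BZR1* (0.43 ± 0.04, adjusted p = 5.72e-06) and *ARF19* (0.47 ± 0.06, adjusted p = 0.000118) were higher and *PIF4* (-0.34 ± 0.08, adjusted p = 0.0068) was lower in DEX by edgeR. For the receptor-like kinases of auxin-triggered pump activation, the log2 fold change was 0.19 ± 0.04 for *TMK4* (adjusted p = 0.0058) and -0.15 ± 0.04 for *TMK1* (adjusted p = 0.0191, edgeR).

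Of 22 further loci that the annotation names as SAUR genes, AT5G01830 was left out because its product is an ARM repeat protein, and 10 of the other 21 were tested. Of these, *SAUR79*, *SAUR48*, *SAUR35* and *SAUR34* were induced (2.16 ± 0.11, 1.82 ± 0.17, 1.63 ± 0.13 and 0.74 ± 0.16 on the log2 scale), and *SAUR58* was suppressed, with -1.16 ± 0.23. The largest rise among the 58 members, that of *SAUR71* with 0.82, was thus smaller than 3 of these 4. At adjusted p under 0.01 alone, 40% of the 10 were higher and 20% lower, beside 10.9% and 8.69% of all tested genes. The lower ones were *SAUR58* and *SAUR49*, which missed the fold threshold. The median log2 fold change of the 10 was 0.13, with 5 below 0, where that of the tested members was -0.35.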

How the data were processed

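The 58 members, the arrays and the gene lists were chosen with earlier results of these data known. The authors mapped the reads with STAR 2.7.8a to TAIR10 and counted uniquely mapped reads per gene with summarizeOverlaps in union mode, ignoring strand. The annotation they used is not given in the sources used here. The deposited raw counts (1 table, whole numbers) were used. The authors also deposited counts normalised with DESeq2 1.34.0, which were not used here.

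All 8 libraries were fitted with edgeR 4.0.16 (R 4.3.3): filterByExpr, TMM factors and the quasi-likelihood test of treatment, with Benjamini-Hochberg adjustment over 21289 genes. Normalised counts are counts scaled to the mean TMM-adjusted library size. Calls used the thresholds of the study's methods. Errors of fold changes are SE. No 2 libraries of a treatment were alike within sampling noise (chi-square per gene 6.25 to 25.2). Counts were also simulated from the dispersions of the fit with 200 changed genes, fewer than the 987 called induced in the data. Only genes with a mean count over 50 were scored. Of these, 30 of 33 changed to 1.75 times and 20 of 26 changed to 0.57 times their level were recovered. So were 32 of 32 at a fold of 2 and 27 of 31 at 0.5, with 0 of 18969 unchanged genes called. These rates do not cover the 15 tested members with a mean of 50 or less. Depth limits and intervals cover counting error only.

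Values in every library were given for called members, for members at adjusted p under 0.01 in an array with a called member, and for the member of each array or of the single loci with the highest level per length. *SAUR72*, *SAUR33*, *SAUR36*, *SAUR21*, *SAUR22*, *SAUR65* and *SAUR28* were added after their values were seen, as were *SAUR49* and *SAUR70* off the list. Of the pathway genes, called ones and otherwise those with the smallest p per list were named, and *AHA2*, *PP2C.D5* and *PP2C.D6* were added later. Sequences, positions and lengths came from RefSeq (TAIR10.1). Alternatives were DESeq2 1.42.0, other scalings, filters and thresholds, the replicate number as a block, restrictions to members without paralog or overlap limits, and leaving out each library.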

Additional observations from a re-analysis of the deposited data

Results flagged for a closer look

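Of 96 groups of 4 libraries (48 tested members in 2 treatments), 8 had 1 library apart from the other 3 by Dixon's criterion, where about 4.8 would be expected by chance, since chance flags about 1 in 20 groups. In *SAUR71*, DEX replicate 1 had 312 normalised counts against 414 to 421 in the other DEX libraries. In *SAUR41*, mock replicate 3 had 258 against 211 to 215. In *SAUR54*, DEX replicate 3 had 109 against 164 to 171. In *SAUR62*, mock replicate 4 had 25.3 against 36.6 to 37.3, and DEX replicate 2 had 35.6 against 19.1 to 21.4. In *SAUR26*, DEX replicate 1 had 35.3 against 20.3 to 21.8. In *SAUR1*, mock replicate 4 had 249 against 319 to 333. In *SAUR4*, mock replicate 3 had 44.3 against 58.5 to 60.3.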

How the results depend on the processing

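The count of induced members was 3 and that of suppressed members 3 under DESeq2, DESeq2 size factors, no filter on low counts, a filter at a mean count of 50, and an adjusted p under 0.05. The restrictions to members without paralog or overlap limits could not change these counts, because no called member has such a limit. Scaling by total counts gave 6 suppressed members and upper-quartile factors gave 7, a mean count over 10 gave 4 induced and 6 suppressed, and adjusted p under 0.01 alone gave 5 induced and 12 suppressed. Testing against the fold threshold with edgeR's glmTreat gave 0 and 0, with 2 members higher and 6 lower at an unadjusted p under 0.05. Leaving out 1 library at a time gave 3 induced and 3 to 5 suppressed members, the latter 5 without DEX replicate 1. *SAUR67*, *SAUR14*, *SAUR33* and *SAUR32* were the members that met the call under another scaling or without 1 library. The pathway list had 3 or 4 induced and 0 suppressed genes under DESeq2, the other scalings and filters, the replicate block and each left-out library. At adjusted p under 0.01 alone more of its genes passed in both directions, as the values of *AHA1*, *AHA11* and *PIF4* show.

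The 48 members gave 705 values under DESeq2, the other scalings and filters, the replicate block and each left-out library. Of these, 676 kept direction and side of the threshold, 11 newly passed it, 0 were lost and 18 changed sign, and the cause was not tested. The values that changed sign were near 0. The test with glmTreat, under which no member was called, is not among the 705 values. *SAUR8* was -0.00096 with total counts and -0.0038 with upper-quartile factors, and -0.0124 to 0.0888 without 1 library. *SAUR29* was -0.0435 and -0.0472 with these scalings, -0.0016 with no filter, -0.0014 with the replicate block, and -0.121 to 0.0777 without 1 library. Without 1 library *SAUR10* ranged from -0.0385 to 0.373, *SAUR38* from -0.0056 to 0.18, *SAUR31* from -0.124 to 0.0835 and *SAUR24* from -0.19 to 0.053. The median log2 fold change of the members stayed between -0.40 and -0.26. The replicate numbers do not pair the libraries (correlation of deviations -0.0098 to 0.072 for the same number, -0.13 to 0.16 for different ones). With the replicate block, 3 members were induced and 3 suppressed. Counts below 50 limit 15 of the 48 tested members, among them 4 that passed both the fold threshold and adjusted p.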
